A study of Caenorhabditis elegans with 7 samples.

Results

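The insulin receptor cascade of Caenorhabditis elegans was examined in starved first-stage (L1) larvae whose parents had eaten little or freely. The 10 genes were chosen by name for their known place between the receptor and the AKT kinases: daf-2, age-1, aap-1, ist-1, pdk-1, akt-1, akt-2, sgk-1, daf-18 and pptr-1. All 10 were found among the 44968 annotated features of the deposited count files, and all 10 passed the filter on low counts that 14867 features passed. Larvae of the wild-type strain N2 came from parents under dietary restriction (DR, 4 libraries, replicates A to D) or fed ad libitum (AL, 3 libraries, replicates A to C). Worms of both groups were kept at 20 °C. Parental cultures ran 96 hr in liquid medium with HB101 bacteria, at 3.1 for DR and 25 for AL, both in mg per mL by the deposited notes. Their embryos were freed by bleaching and kept for 24 hr without food at 1 embryo per µL, so larvae of both groups were starved and differed by the food of their parents. Messenger RNA was taken from whole larvae, so fewer cells of a type and less RNA per cell cannot be told apart.

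DAF-2 is the insulin/IGF-1 receptor of the worm. When insulin-like peptides bind it, the phosphoinositide 3-kinase AGE-1 makes the membrane lipid PIP3, which brings PDK-1 and the AKT kinases to the membrane, where AKT is switched on and keeps the FoxO transcription factor DAF-16 out of the nucleus. The phosphatase DAF-18 removes the lipid signal, and DAF-16 activity is needed for L1 larvae to survive starvation and hold their arrest. The question put to these libraries is whether scarce food in the parents goes with other transcript levels of this machinery in offspring that had not eaten.

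Feature totals lay between 16626117 and 20874237 reads in DR libraries and between 16805120 and 22952310 in AL libraries. Values are counts scaled to the library total (CPM) after TMM scaling, and differences are log2 fold changes of DR over AL progeny from an edgeR quasi-likelihood fit over all 14867 genes, with Benjamini-Hochberg adjustment and a threshold of 0.05. The members had between 263 and 3518 reads in a library. Ribosomal RNA took 11.8% to 23.8% of the reads of DR libraries, the highest being DR D, and 8.04% to 12.6% of those of AL libraries. Moulting genes stood apart in a way that crossed the groups: their summed level was 171 to 283 CPM in DR libraries, highest in DR B, and 214 to 273 CPM in AL libraries, highest in AL B. Markers of the larval tissues were present. Of the markers matched to a feature, all 21 neuron, all 19 intestine, all 14 epidermis and all 8 pharyngeal muscle genes were read in every library. So were 13 of 14 body wall muscle genes, while the muscle factor gene hlh-1 was listed at 0 in all 7 libraries. All 17 oocyte and early embryo markers had reads in every library too, with a summed level of 261 to 304 CPM in DR libraries and 281 to 282 CPM in AL libraries. Most of that sum came from the gene skn-1, at 175 to 204 CPM in DR and 158 to 192 CPM in AL libraries. The same gene is listed below among the modulators and outputs of AKT and SGK, so the sum mostly gives the level of skn-1.

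None of the 10 cascade genes passed the test over all genes (edgeR quasi-likelihood), where 2 of 14867 genes, 0.0135%, passed, both higher and 0% lower in DR progeny. Still, 9 of the 10 members had a log2 fold change below 0, as 48.4% of all tested genes did, and the members' median was −0.17 beside 0.01 over all genes. Single libraries moved that median: it was −0.083 without AL A, with 7 of the 10 below 0, and −0.26 without DR A. Upper quartile scaling also left 7 of the 10 below 0, and the length trend removed from each library left 8, with a median of −0.11. With the file-name prefix as a covariate 7 were below 0, with a median of −0.27. Among AL B, AL C and DR D alone, which share a prefix, 6 of the 10 were below 0, with a median of −0.24. In the other prefix, where AL A is the lone AL library, all 10 were, with a median of −0.27. All 10 were also below 0 with library size only, without a low-count filter, without AL C and without DR D. The same held with the replicate letters, the rRNA share or the score of the moulting genes in the fit. Without DR B or without DR C 7 of the 10 were below 0. At an unadjusted p under 0.05 there were 4 members, all lower in DR progeny (daf-2, akt-1, pptr-1 and aap-1), beside 10.7% of all genes in either direction, 5.35% lower and 5.39% higher. For 3 members (daf-2, akt-1 and aap-1) every DR library lay below every AL library, as for 5.88% of all tested genes, and for no member did every DR library lie above, as for 5.97%; groups did not overlap in either direction for 11.9% of all genes. None of the 10 was called by DESeq2, which called 0.351% of 11685 genes. Nor was any called by the edgeR exact test, which called 0.161% of 14867 genes, or by limma-voom, which called 0%. The authors' deposited table gives an adjusted p under 0.05 to 0.283% of its 13436 genes, and none of the members is among them.

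**Figure D1:**
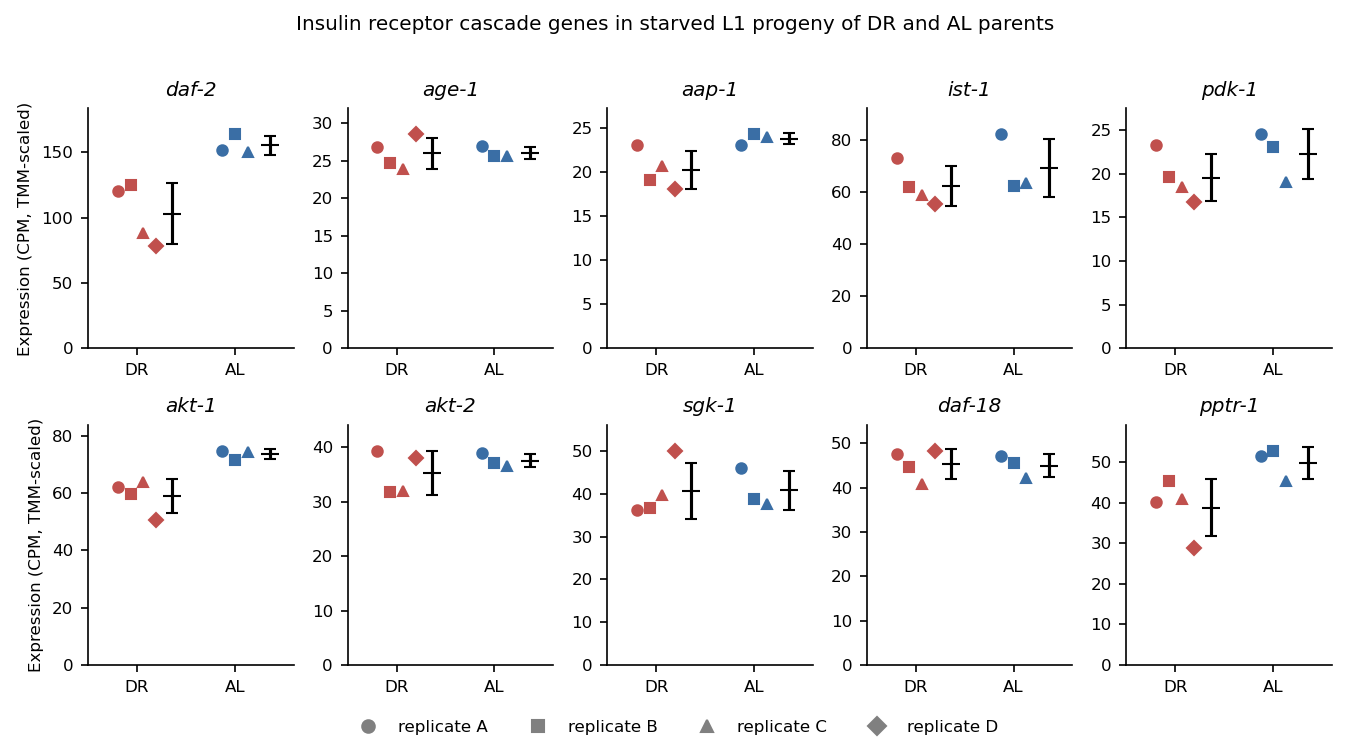
Expression of the 10 cascade genes in CPM (vertical axis, from 0) in each DR library (red, left) and AL library (blue, right); symbols mark the replicate letter, and the black bar is the mean with 1 SD. The DR points of daf-2, at 78.1 to 125 CPM, all lie under the AL points, at 150 to 164 CPM, while those of age-1 and daf-18 overlap between the groups.

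The receptor gene daf-2 (Y55D5A.5) differed most among the members. It stood at 120, 125, 88.5 and 78.1 CPM in DR A, B, C and D, against 152, 164 and 150 CPM in AL A, B and C. The groups did not overlap, and the DR libraries were spread over a wider range than the AL libraries, with DR C and DR D well under the other two. Means were 103 ± 23.3 CPM in DR progeny (SD, n = 4) and 155 ± 7.35 CPM in AL progeny (SD, n = 3). The log2 fold change was −0.59 ± 0.15 (SE), a 0.663-fold level, with a 95% interval of −0.93 to −0.25 and an adjusted p of 0.371 (edgeR quasi-likelihood). Its unadjusted p of 0.00287 ranked 111 among the 14867 genes. Adjusted p was 0.0535 by DESeq2, 0.0958 by the edgeR exact test and 0.425 by limma-voom, and 0.0588 in the authors' deposited table, where the log2 fold change is −0.59. Without both DR C and DR D the log2 fold change was −0.34, with an adjusted p of 0.478 in the same edgeR test.

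Several library measures were set beside daf-2, without a test of a link between them and its level. At 8296 bases of merged exons in Ensembl release 115, daf-2 is longer than 99.4% of the tested genes with a known length, and DR C was the library in which long transcripts were low. The fitted trend at the length of daf-2 was 0.03, 0.04, −0.28 and −0.05 on the log2 scale in DR A, B, C and D, against 0.08, 0.15 and 0.01 in AL A, B and C. With that trend removed from each library the log2 fold change was −0.46 (adjusted p = 0.386, edgeR), and in a fit that takes each library's rRNA share into account it was −0.42 (adjusted p = 0.904). The 19 intestine markers summed to 12723, 10981, 11068 and 8745 CPM in DR A, B, C and D, against 13558.5, 14444 and 14701 CPM in AL A, B and C, without overlap; their part in the result was not tested. The 21 neuron markers overlapped, at 4549 to 4926 CPM in DR and 4432 to 4831 CPM in AL libraries. With the score of the moulting genes as a covariate, daf-2 had a log2 fold change of −0.55 (adjusted p = 0.547, edgeR). No annotated exon of another gene shares bases with the exons of daf-2.

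The file names carry the prefixes BB1 (AL A with DR A, B and C) and BB2 (AL B and AL C with DR D), whose meaning the labels do not give. Within BB1 the log2 fold change of daf-2 was −0.45 (adjusted p = 0.999, edgeR), and within BB2 it was −1.002 (adjusted p = 0.00540). BB2 holds no DR library besides DR D, so that call rests on a single DR library and on the assumption that it varies like the AL libraries. In the BB2 fit 4.08% of all tested genes were called, and pptr-1 was called with daf-2 (log2 fold change −0.76, adjusted p = 0.0304).

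Across the 7 libraries the genes most like daf-2 by Pearson's r of log2 CPM were, among 5519 genes with a mean of at least 20 CPM, mnk-1 (r = 0.994), M03C11.3 (r = 0.993) and Y56A3A.2 (r = 0.992). The gene mnk-1 encodes a MAP kinase-interacting kinase. It had 304, 347, 241 and 203 CPM in DR A, B, C and D, against 413, 468 and 418 CPM in AL A, B and C. All 3 genes were lowest in DR D and highest in AL B, as daf-2 was. The r values are descriptions picked as the largest of many over 7 points that share library depth and composition.

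Downstream of the receptor, ist-1 encodes the insulin receptor substrate homologue that links DAF-2 to the kinase branch. It ranged from 55.6 to 73.4 CPM in DR libraries and from 62.4 to 82.4 CPM in AL libraries, which overlapped, and AL A was the highest. The log2 fold change was −0.15 (95% interval −0.43 to 0.12, adjusted p = 0.672, edgeR), and −0.01 without AL A, −0.24 without DR A and −0.10 without DR D.

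The phosphoinositide 3-kinase has a catalytic subunit, AGE-1, and an adaptor subunit, AAP-1; neither gene passed the test. The catalytic gene age-1 (B0334.8) stood at 26.9, 24.7, 23.9 and 28.6 CPM in DR A, B, C and D, against 27.02, 25.6 and 25.7 CPM in AL A, B and C. The groups overlapped throughout. Means were 25.99 ± 2.13 CPM in DR progeny (SD, n = 4) and 26.1 ± 0.791 CPM in AL progeny (SD, n = 3), and the 95% interval of the log2 fold change ran from −0.22 to 0.20 (estimate −0.0077).

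The adaptor gene aap-1 (Y110A7A.10) stood at 23.04, 19.06, 20.7 and 18.1 CPM in DR A, B, C and D, against 23.04, 24.27 and 23.995 CPM in AL A, B and C. The highest DR library and the lowest AL library were nearly equal, at 23.041 and 23.042 CPM, so the separation of the groups rests on a very small gap. The log2 fold change was −0.23 ± 0.10 (SE, 95% interval −0.46 to −0.0025, adjusted p = 0.459, edgeR). Of its merged exon bases 7.53% are shared with Y110A7A.21 on the opposite strand, and age-1 shares 4.89% with B0334.10 there. Reads over such bases cannot be assigned by strand in these libraries. HTSeq set aside as ambiguous 4.502% to 5.66% of the aligned reads of DR libraries and 4.05% to 4.46% of those of AL libraries.

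PDK-1 phosphorylates and activates the AKT and SGK kinases. The gene pdk-1 ranged from 16.8 to 23.2 CPM in DR libraries and from 19.004 to 24.5 CPM in AL libraries, with overlap. Its log2 fold change was −0.18 (95% interval −0.47 to 0.10, adjusted p = 0.629, edgeR), −0.10 without AL A, −0.28 without AL C or DR A, −0.12 without DR D, and −0.052 without the pair DR C and DR D.

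Among the 3 kinases that PDK-1 acts on, akt-1 was the gene with less RNA in every DR library. It stood at 62.2, 59.6, 63.9 and 50.7 CPM in DR A, B, C and D, against 74.8, 71.7 and 74.5 CPM in AL A, B and C. The groups did not overlap, and the AL libraries lay close together. Means were 59.1 ± 5.90 CPM in DR progeny (SD, n = 4) and 73.7 ± 1.69 CPM in AL progeny (SD, n = 3). The log2 fold change was −0.32 ± 0.10 (SE, 95% interval −0.53 to −0.11), with an unadjusted p of 0.00660 and an adjusted p of 0.374 (edgeR). It was −0.25 without DR D, and −0.20 once the rRNA share entered the fit. The overlapping gene rop-1, on the opposite strand, shares 8 bases of exon with akt-1, and had 695, 701, 691 and 611 reads, not scaled for depth, in DR A, B, C and D, against 1096, 1204 and 959 reads in AL A, B and C.

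The paralogue akt-2 ranged from 31.8 to 39.4 CPM in DR libraries and from 36.6 to 39.0 CPM in AL libraries, so that the DR libraries lay on both sides of the AL libraries. Its log2 fold change was −0.09 (95% interval −0.31 to 0.13, adjusted p = 0.766, edgeR), −0.15 without DR A and −0.044 without DR B or without DR C. The ratio of akt-1 to akt-2 per kb of exon was 1.65, 1.96, 2.09 and 1.39 in DR A, B, C and D, against 2.004, 2.019 and 2.13 in AL A, B and C. These ratios overlapped between the groups, and a difference between the changes of the 2 genes was not tested.

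The third kinase gene, sgk-1, had 36.2, 36.7, 39.8 and 50.1 CPM in DR A, B, C and D, against 46.0, 38.7 and 37.7 CPM in AL A, B and C. DR D was the highest of all libraries and DR A the lowest. The log2 fold change was −0.0070 (95% interval −0.28 to 0.27). Within the file-name prefixes the sign turned, with −0.29 in BB1, against the lone AL library AL A, and 0.40 in BB2, from the lone DR library DR D. SGK-1 is a kinase related to AKT that is also controlled by TOR complex 2.

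Of the 2 phosphatase genes that oppose the cascade, daf-18 differed least. It stood at 47.7, 44.7, 40.7 and 48.4 CPM in DR A, B, C and D, against 47.3, 45.6 and 42.2 CPM in AL A, B and C, with full overlap. Means were 45.4 ± 3.47 CPM in DR progeny (SD, n = 4) and 45.01 ± 2.58 CPM in AL progeny (SD, n = 3), and the log2 fold change of 0.01 had a 95% interval of −0.19 to 0.21.

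The gene pptr-1 encodes a B56 regulatory subunit of protein phosphatase 2A, which directs that phosphatase to AKT-1. It stood at 40.1, 45.5, 40.8 and 28.8 CPM in DR A, B, C and D, against 51.5, 52.8 and 45.4 CPM in AL A, B and C. DR B lay just above AL C, so the groups overlapped, and DR D was far below the rest. The log2 fold change was −0.36 ± 0.14 (SE, 95% interval −0.66 to −0.06, adjusted p = 0.406, edgeR), −0.24 without DR D, and −0.17 once the rRNA share entered the fit. The ratio of pptr-1 to akt-1 per kb of exon averaged 0.544 ± 0.068 in DR progeny (SD, n = 4) and 0.565 ± 0.053 in AL progeny (SD, n = 3), with overlap.

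**Figure D2:**
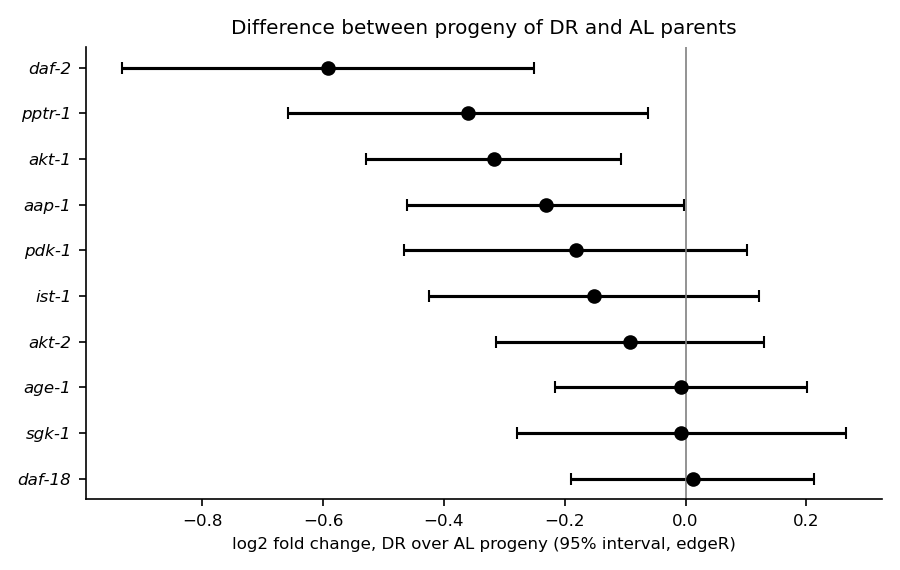
Log2 fold change of DR over AL progeny (horizontal axis) for each cascade gene, largest decrease at the top, with its 95% interval from the edgeR quasi-likelihood fit. The intervals of daf-2, pptr-1, akt-1 and aap-1 lie below 0, and that of aap-1 ends at −0.0025; none of the 10 passed after adjustment over all genes.

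The library DR D set the outer values of most members. It was the lowest of the 7 libraries for 6 members (daf-2, aap-1, ist-1, pdk-1, akt-1 and pptr-1) and the highest for 3 (age-1, sgk-1 and daf-18). Over all tested genes it was the lowest for 22.4% and the highest for 21.6%. Without DR D the log2 fold changes were −0.48 for daf-2, −0.25 for akt-1, −0.24 for pptr-1 and −0.18 for aap-1. DR D also had the highest rRNA share and the lowest summed intestine and body wall muscle markers. The muscle markers summed to 10398 CPM in DR D, 11724 to 13511 CPM in the other DR libraries and 13097 to 13665 CPM in AL libraries.

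**Figure D3:**
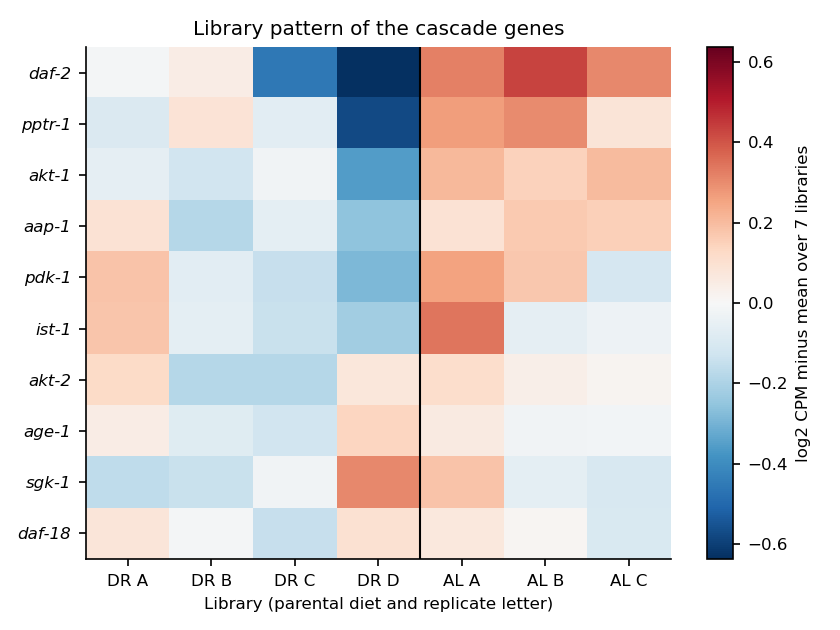
Deviation of each library from the gene's mean over the 7 libraries (colour, log2 CPM), with genes in rows and the 4 DR libraries left of the 3 AL libraries. The DR D column is blue for daf-2, pptr-1, akt-1, aap-1, pdk-1 and ist-1 and on the red side for age-1, sgk-1, daf-18 and akt-2.

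Levels were compared between members as RPKM, the CPM divided by the length of the merged exons in kb. The kinase genes akt-1 and sgk-1 were the most abundant, at 25.9 ± 2.59 and 24.9 ± 3.96 RPKM in DR progeny (SD, n = 4), against 32.3 ± 0.743 and 24.9 ± 2.75 RPKM in AL progeny (SD, n = 3). The 2 genes overlapped in range, with akt-1 the higher in 6 of 7 libraries. A middle group followed, of ist-1, pptr-1, akt-2, daf-2 and daf-18, whose means over all libraries lay between 16.5 and 13.6 RPKM and whose neighbours overlapped. Lowest were aap-1 (11.2 in DR and 13.2 in AL progeny), pdk-1 (8.06 and 9.16) and the catalytic kinase gene age-1 (6.62 and 6.64). Between sgk-1 and ist-1 the ranges did not overlap in the 7 libraries, and every other pair of neighbours overlapped.

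In this order daf-2 held place 7 of 10 in DR progeny and place 3 in AL progeny (places 6 and 3 per kb of the longest transcript, which put it above pptr-1 and akt-2 over all libraries), with 12.4 ± 2.81 RPKM in DR (SD, n = 4) and 18.7 ± 0.886 in AL progeny (SD, n = 3). Set among the 14644 tested genes with a known length, akt-1 lay above 80.7% of them and age-1 above 44.1%. The age-1 transcript stood at 0.486 ± 0.016 of the daf-18 level in DR progeny (SD, n = 4) and at 0.493 ± 0.021 in AL progeny (SD, n = 3), a ratio with little spread between libraries. The catalytic-to-adaptor ratio, age-1 over aap-1, was 0.536, 0.595, 0.530 and 0.726 in DR A, B, C and D, against 0.539, 0.485 and 0.492 in AL A, B and C, which overlapped.

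**Figure D4:**
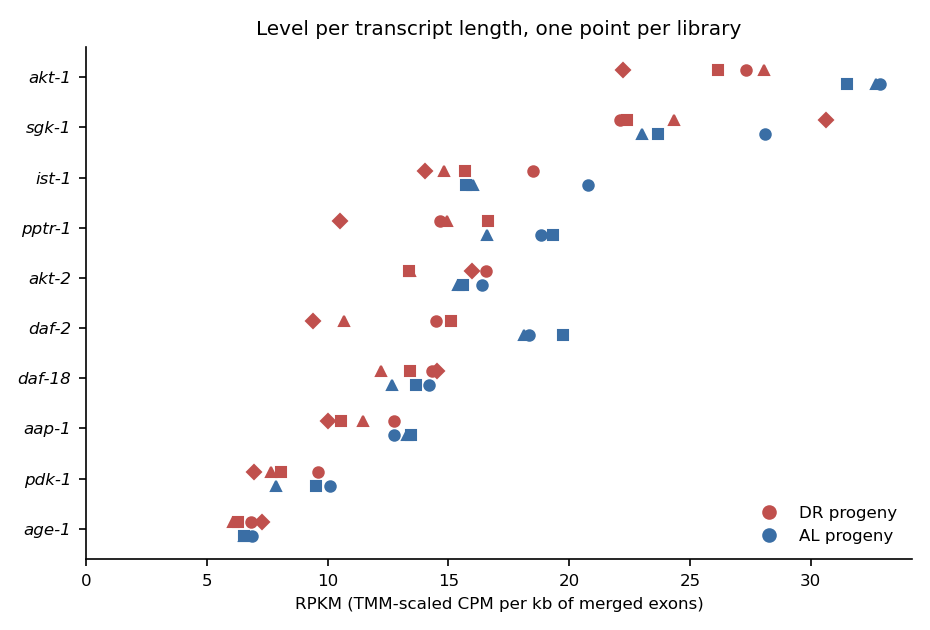
Level of each cascade gene per transcript length (horizontal axis, RPKM, from 0), 1 point per library, DR in red above AL in blue, with the replicate symbols circle, square, triangle and diamond for A, B, C and D. The genes akt-1 and sgk-1 lie to the right of the others and age-1 lies furthest left, between 6.08 and 7.27 RPKM.

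Genes around the cascade were taken from 5 lists, and no gene of any list passed the test in either direction (edgeR, adjusted p under 0.05). Of the 7 protein phosphatase 2A subunit genes, 2 were above and 5 below 0 in log2 fold change, with a median of −0.03. That median was above 0 without AL B (0.040), without DR C (0.051) and with the length trend removed (0.012). It was also above 0 within file-name prefix BB2 (0.097), where DR D is the lone DR library. Without the pair DR C and DR D it was 0.022, and with the prefix as a covariate 0.0061. In every other fit it was below 0. The members with the smallest p were rsa-2, a centrosomal partner of the phosphatase (15.7 CPM in DR and 14.3 CPM in AL progeny), and the striatin homologue cash-1 (88.9 and 95.6 CPM). The catalytic subunit gene let-92, at 211 ± 20.8 CPM in DR (SD, n = 4) and 202 ± 4.69 CPM in AL progeny (SD, n = 3), and the scaffold gene paa-1, at 156 and 161 CPM, overlapped between the groups.

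Of 20 genes for phosphoinositide kinases, phosphatases and phospholipases C, 7 were above and 13 below 0, with a median of −0.06. With the length trend removed 10 were above and 10 below 0, with a median of 0.0092, and without AL A the median was −0.041. For 5 of the 20 every DR library lay below every AL library, as for 5.88% of all tested genes. The smallest p belonged to the phospholipase C gene plc-2 (31.5 ± 5.10 CPM in DR, n = 4, and 40.4 ± 0.463 CPM in AL progeny, n = 3, SD), with a log2 fold change of −0.36 and an adjusted p of 0.376 (edgeR). The myotubularin phosphatase gene mtm-3 followed, with 178 and 218 CPM and a log2 fold change of −0.29.

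The 16 other AGC kinase genes, the family to which AKT, SGK and PDK-1 belong, were all below 0, as 48.4% of all tested genes were, with a median of −0.14. For 4 of them every DR library lay below every AL library, beside 5.88% of all genes. With the length trend removed 13 of the 16 were below 0 and the median was −0.060; upper quartile scaling left 15 below 0. Without DR C 12 were below 0, and without the pair DR C and DR D the median was −0.082. Within file-name prefix BB2, where DR D is the lone DR library, 10 of the 16 were below 0. The S6 kinase gene rsks-1 had 77.3 ± 14.2 CPM in DR (SD, n = 4) and 101 ± 4.98 CPM in AL progeny (SD, n = 3), a log2 fold change of −0.39 with an adjusted p of 0.376 (edgeR).

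Of 23 tested modulators and outputs of AKT and SGK, 8 were above and 15 below 0, with a median of −0.08 (−0.044 with the length trend removed), and for 4 every DR library lay below every AL library, beside 5.88% of all genes. The gene math-33, for a deubiquitylase that stabilises DAF-16, had 75.3 ± 4.76 CPM in DR (SD, n = 4) and 94.1 ± 9.99 CPM in AL progeny (SD, n = 3), a log2 fold change of −0.32 with an adjusted p of 0.374 (edgeR). The TOR kinase gene let-363 had 112 and 132 CPM, a log2 fold change of −0.23.

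The irld genes code for proteins with the ligand-binding L domain of the insulin and EGF receptors. The list took every irld symbol among the features, plus hpa-1 and hpa-2. Of 58 listed, 57 matched a feature and 23 were expressed enough to be tested, 14 above and 9 below 0, with a median of 0.05. That median moved with single libraries, from −0.037 without DR A to 0.15 without AL C, and was −0.23 over the 3 members that passed a filter of 5 CPM in 3 libraries. Within the file-name prefixes it was 0.33 in BB1 and −0.22 in BB2. The smallest p belonged to irld-56, at 0.389 CPM in DR and 0.825 CPM in AL progeny, and to irld-6, at 14.7 and 18.01 CPM. Neither passed, and the groups overlapped for every tested gene of the list, while they did not overlap for 11.9% of all tested genes. Levels in the list were low, and 14 of the 23 passed a filter of 1 CPM in 3 libraries, so small differences could not be seen for many.

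**Figure D5:**
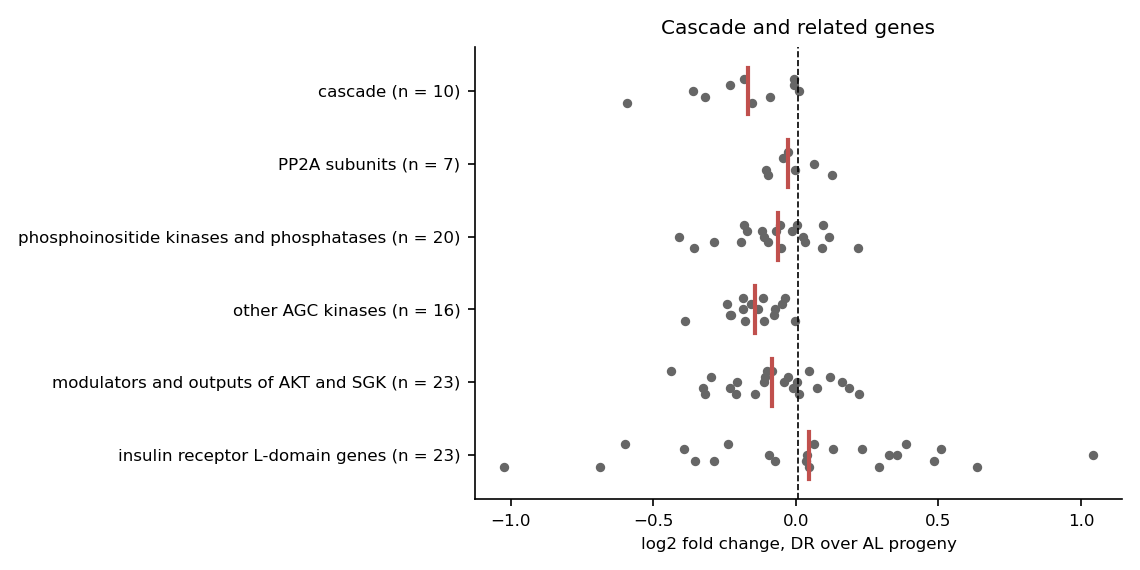
Log2 fold change of DR over AL progeny (horizontal axis) of every tested gene in the cascade and in the 5 lists around it, 1 point per gene, with the list median as a red bar and the median of all tested genes as a dashed line. The points of the other AGC kinases all lie below 0, around a median of −0.14. In other fits 13 of 16 did with the length trend removed, 15 with upper quartile scaling and 10 within file-name prefix BB2. The points of the insulin receptor L-domain genes spread widely on both sides.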

How the data were processed

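Poly(A) RNA of 7 samples was turned into non-directional libraries with 12 rounds of PCR, per the labels' protocols. Alignment was by Bowtie 1.1.2, counting by HTSeq and the authors' comparison by edgeR, per the submitters' processing notes. Build and annotation are not given in these sources, so no coordinates are printed, and no sequences were used. The deposited files hold raw counts per feature. A workbook deposited by the authors holds CPM per library, and log2 fold changes with p-values from an edgeR exact test on genes above 1 CPM in 3 libraries, per its notes. HTSeq's summary lines (22.2% to 24.0% of the lines' total) were left out.

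Counts were tested with edgeR 4.0.16 in R 4.3.3 (TMM, filterByExpr, robust quasi-likelihood F-test, two-sided, DR minus AL, Benjamini-Hochberg over 14867 genes); limma 3.58.1 and DESeq2 1.42.0 served as alternatives. A log2 CPM has a prior count of 2. The length trend is a lowess curve per library (span 0.3). Exon lengths and overlaps come from Ensembl release 115, whose build may differ from the authors'. The fits were tested on simulated data. Libraries are biological replicates per the series' design text; intervals cover the spread between them. A difference of 1 library with no partner in a prefix assumes equal spread.

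Named genes were the 10 members, genes past the threshold and the 2 smallest p of each list, and the 3 genes most like daf-2. The genes let-92, paa-1, rop-1 and skn-1 were added after their values were seen. 1 gene that the rule names among the other AGC kinases is not reported here. The members and lists were chosen with earlier results of these data known. In the lists around the cascade, the symbols lst-8 and hpa-2 matched no feature used here. Of the tissue markers, 21 of 22 listed neuron and 19 of 20 listed intestine symbols matched.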

Additional observations from a re-analysis of the deposited data

How the results depend on the processing

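Of the 26 alternatives, 25 called none of the 10 cascade genes. The exception was the fit within file-name prefix BB2, which rests on the lone DR library DR D. The members called there were daf-2 (log2 fold change −1.002) and pptr-1 (−0.76). That fit also held calls among the phosphoinositide enzymes, the other AGC kinases and the modulators of AKT and SGK. These calls stand beside the share of all genes given above for that fit, and are not read as a result about the lists. In the edgeR quasi-likelihood fit over all 7 libraries an adjusted p under 0.1 added none. In alternatives daf-2 had an adjusted p of 0.0535 by DESeq2, 0.0579 without a filter on low counts and 0.0958 by the exact test, and akt-1 of 0.0717 within BB2, with ranges over all alternatives of 0.00540 to 0.999 and 0.0717 to 0.999. Over all genes the count of 2 moved to 1 with library size only, 77 without a filter on low counts, 41 by DESeq2, 24 by the edgeR exact test, 616 within BB2, and 0 by limma-voom, without robust estimation, within BB1, with the rRNA share as a covariate, and without the pair DR C and DR D; the cause was not tested. With 1 library left out it lay between 0 and 2. With the replicate letters as a replicate block the count was 4, and daf-2 had a log2 fold change of −0.50 (adjusted p = 0.241, edgeR). Deviations from the group means correlated at 0.20, 0.27 and −0.10 for the letters A, B and C, so the letters were not taken to pair the libraries, and not every library correlated best with its own letter.

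All 26 alternatives kept the sign for daf-2 (−1.002 to −0.34), aap-1, ist-1, pdk-1, akt-1 (−0.52 to −0.20) and pptr-1 (−0.76 to −0.17). The sign turned for the 4 genes nearest to 0. For age-1 it was 0.0070 with upper quartile scaling, 0.016 with the prefix as a covariate, 0.16 within BB2, 0.063 with the length trend removed, and −0.055 to 0.033 with 1 library left out. For akt-2 it was 0.053 within BB2. For sgk-1 it was 0.0086 with upper quartile scaling, 0.0014 with a filter of 5 CPM, 0.024 with the prefix as a covariate, 0.40 within BB2, and −0.12 to 0.089 with 1 library left out. For daf-18 it was −0.029 with library size only, −0.0011 without a filter, −0.021 with the replicate block, −0.090 within BB1, −0.040 with the rRNA share, −0.00021 with the moulting score, and −0.033 to 0.062 with 1 library left out. Leaving 1 library out kept daf-2 between −0.70 and −0.48.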
